A study of Homo sapiens with 4 samples.

Results

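Among 36305 FLI1 peaks on chromosomes 1 to 22 and X in SKNMC cells, 2094 (5.77%, 95% interval 5.53 to 6.01) lay over 2.5 kb from every protein-coding transcription start site (TSS) and were shared with both an SSRP1 peak and an H3K27ac peak. They were chosen by peak position in the 3 lists: a pair of peaks was shared when the overlap made up 20% or more of either one. Peaks that held a run of 4 or more tandem GGAA units were left out, which removed 190 further peaks. These 2094 regions are called shared distal peaks here. The overlap of the 3 marks was thus fixed by the choice and is a description, not a finding.

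SKNMC (the SK-N-MC line) is an established Ewing sarcoma cell line. Chromatin was digested with micrococcal nuclease and sonicated, and 1 library each was made for FLI1, SSRP1 and H3K27ac, with 1 input library as the control for peak calling, 4 libraries in all. The labels name no treatment or genotype beyond the line, and every library came from that line. With 1 library per target no replicate check was possible and no p-value was computed. Every interval is a 95% interval that covers counting error only.

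Ewing sarcoma cells carry a chromosome translocation that joins EWSR1 to an ETS factor gene such as FLI1, and the labels do not say whether the antibody separated the fusion from intact FLI1. EWS-FLI1 binds single ETS sites and runs of GGAA, and is known for opening enhancers at such runs. SSRP1 is a subunit of FACT, a histone chaperone that moves H2A-H2B dimers on and off nucleosomes during transcription, and acetylation of lysine 27 on histone H3 (H3K27ac) marks active promoters and enhancers. To check the labelled line, H3K27ac was read at marker genes. A peak lay within 2.5 kb of a TSS at 10 of 10 marker genes of Ewing sarcoma, against 57.9% of all protein-coding genes. Among a list of 21 markers of other cell types it lay at 1, the B-cell gene CD79A, and markers such as CD3D, PTPRC, ALB, EPCAM, MYOD1 and GFAP had none.

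The ETS core searched for was CCGGAAG or CCGGAAA on either strand, in the 300 bases around each FLI1 midpoint, and 245 shared distal peaks (11.7%, 10.4 to 13.2) held it. The sequences below show what such windows look like, from the hg19 plus strand, 5′ to 3′, with the ETS core in capitals, including its reverse complement where it lies on the other strand. They were taken from the peaks named by rule further on, with the core-bearing ones first.
NKX2-2, chr20:21490580-21490879: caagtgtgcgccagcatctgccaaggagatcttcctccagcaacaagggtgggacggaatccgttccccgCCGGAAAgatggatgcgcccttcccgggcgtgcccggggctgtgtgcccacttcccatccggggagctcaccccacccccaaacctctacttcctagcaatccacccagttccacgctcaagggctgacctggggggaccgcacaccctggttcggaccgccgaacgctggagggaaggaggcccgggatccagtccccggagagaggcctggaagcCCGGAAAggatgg
SEPTIN9, chr17:75231479-75231778: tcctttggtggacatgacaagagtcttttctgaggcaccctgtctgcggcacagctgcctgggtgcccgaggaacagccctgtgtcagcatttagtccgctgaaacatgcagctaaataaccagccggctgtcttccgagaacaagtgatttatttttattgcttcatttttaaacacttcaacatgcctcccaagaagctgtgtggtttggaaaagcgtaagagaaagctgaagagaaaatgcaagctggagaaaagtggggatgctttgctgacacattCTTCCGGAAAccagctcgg
SAMD11, chr1:864469-864768: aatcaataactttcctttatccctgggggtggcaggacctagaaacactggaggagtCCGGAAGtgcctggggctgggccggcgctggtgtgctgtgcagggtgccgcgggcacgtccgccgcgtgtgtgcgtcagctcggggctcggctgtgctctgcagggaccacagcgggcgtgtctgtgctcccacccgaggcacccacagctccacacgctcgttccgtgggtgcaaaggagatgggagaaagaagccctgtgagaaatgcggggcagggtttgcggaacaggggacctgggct
BAHCC1, chr17:79362727-79363026: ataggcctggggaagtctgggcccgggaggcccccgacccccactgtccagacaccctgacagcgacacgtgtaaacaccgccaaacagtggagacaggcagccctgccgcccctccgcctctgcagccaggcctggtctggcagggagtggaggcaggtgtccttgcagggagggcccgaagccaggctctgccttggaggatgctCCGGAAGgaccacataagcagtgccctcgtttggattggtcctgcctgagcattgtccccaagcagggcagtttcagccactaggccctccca
IGF1, chr12:102813229-102813528: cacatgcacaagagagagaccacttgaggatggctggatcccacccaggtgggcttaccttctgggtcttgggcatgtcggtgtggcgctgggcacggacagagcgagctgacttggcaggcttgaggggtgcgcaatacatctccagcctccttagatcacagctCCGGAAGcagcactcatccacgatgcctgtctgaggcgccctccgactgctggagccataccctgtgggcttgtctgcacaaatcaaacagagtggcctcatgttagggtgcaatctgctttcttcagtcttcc
SH2B3, chr12:111847439-111847738: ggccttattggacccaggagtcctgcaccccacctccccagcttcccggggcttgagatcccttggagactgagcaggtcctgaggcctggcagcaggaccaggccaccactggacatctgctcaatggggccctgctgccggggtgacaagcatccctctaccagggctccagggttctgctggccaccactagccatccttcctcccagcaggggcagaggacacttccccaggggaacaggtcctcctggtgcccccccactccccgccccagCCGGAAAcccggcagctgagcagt
The NKX2-2 window held 2 separate cores and the SEPTIN9 window 2 cores that overlap on opposite strands. The NKX2-2 window was intergenic, 3.81 kb from the TSS of this homeobox factor gene. Those at SAMD11 and SH2B3 were intronic, at 3.22 and 3.08 kb from the TSS, and the SEPTIN9 window was intergenic at 45.2 kb. At BAHCC1 the window lay in the body of a long noncoding RNA (lncRNA) gene at 6.14 kb. The IGF1 window, 58.8 kb from the TSS, overlapped a coding exon of this growth factor gene. For contrast, windows without the core are shown from MDFI, the widest intronic shared distal peak, and from CCND1, at the shared distal peak nearest to its TSS.
MDFI, chr6:41612275-41612574: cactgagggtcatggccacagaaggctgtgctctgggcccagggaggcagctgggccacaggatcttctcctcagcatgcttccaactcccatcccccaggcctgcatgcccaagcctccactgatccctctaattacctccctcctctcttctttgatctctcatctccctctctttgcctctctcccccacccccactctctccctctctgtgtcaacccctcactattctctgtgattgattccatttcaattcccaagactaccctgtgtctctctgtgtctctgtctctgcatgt
CCND1, chr11:69459108-69459407: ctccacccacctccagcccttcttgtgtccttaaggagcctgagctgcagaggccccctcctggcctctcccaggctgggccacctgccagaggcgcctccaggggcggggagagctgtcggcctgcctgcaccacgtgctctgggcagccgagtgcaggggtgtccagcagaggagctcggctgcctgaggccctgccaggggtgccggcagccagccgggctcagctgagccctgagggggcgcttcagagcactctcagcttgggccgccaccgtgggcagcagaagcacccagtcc
Of the 2094 windows, 1849 were like these and held no ETS core.

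The shared distal peaks were broad for FLI1 and sat in broad acetylated regions. Their FLI1 width ranged from 227 to 2267 bp with a median of 453.5 bp, against a median of 283 bp over all FLI1 peaks. In distal acetylated FLI1 peaks that met no SSRP1 peak (2963 regions) the median was 311 bp, and in distal FLI1 peaks with neither other mark (22702 regions) 263 bp. FLI1 peaks at promoters with both marks (2663 regions) had a median of 407 bp. A wider peak has more room to meet another peak, and the part of the overlap rule in this order was not tested.

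The 1991 SSRP1 peaks met by the shared distal peaks were a median of 509 bp wide, and all 19855 SSRP1 peaks 403 bp. The 1818 H3K27ac peaks they met had a median of 1604 bp, against 653 bp over all 37195. Counted over the shared distal peaks, 930 (44.4%, 42.3 to 46.6) lay in an H3K27ac peak from the widest 10% of that list. A wide SSRP1 or H3K27ac peak also has more room to meet FLI1 peaks, so the rule favours wide partners. Its part in these widths was not tested. The widest H3K27ac peak met was 25447 bp, over the lncRNA gene LINC02323, and the widest SSRP1 peak was 8821 bp, at CCND1. In all, 223 of the H3K27ac peaks held 2 or more shared distal peaks, with 5 the most in 1 peak.

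The rule requires FLI1 and SSRP1 peaks to overlap, so their midpoints had to lie near each other, and the values here describe how. The distance between their midpoints had a median of 153 bp, with quartiles at 66 and 269.75 bp. Midpoints lay within 100 bp at 759 shared distal peaks (36.2%) and over 300 bp apart at 420 (20.1%). The FLI1 peak was wholly inside the SSRP1 peak at 604 (28.8%), the SSRP1 peak wholly inside the FLI1 peak at 266 (12.7%), and 1224 (58.5%) overlapped in part. SSRP1 was the wider of the pair at 1305 (62.3%). The SSRP1 midpoint lay on the side of the nearest coding TSS in 1063 of 2088 cases with an offset (50.9%, 48.7 to 53.1), an interval that includes equal sides. FLI1 lay wholly inside the H3K27ac peak at 1570 (75%), and where its midpoint was inside, the nearer edge was a median of 568 bp away. At 149 (7.12%) the FLI1 midpoint was outside the acetylated interval.

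**Figure D1:**
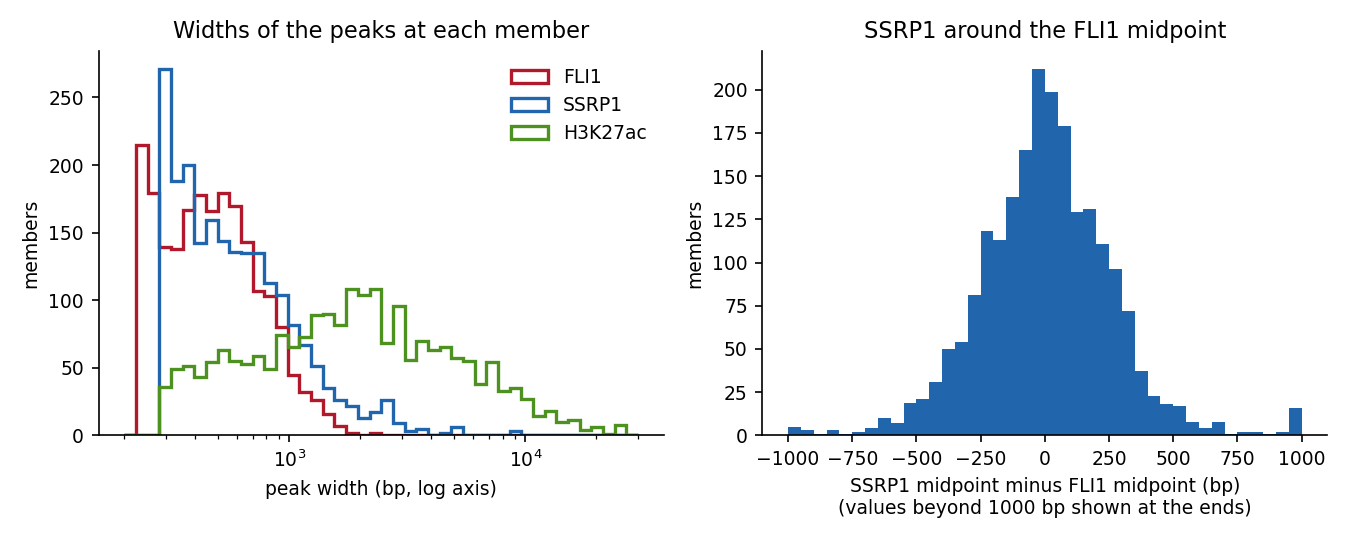
Left, histogram of peak widths (bp, log axis) for the FLI1, SSRP1 and H3K27ac peaks at the 2094 shared distal peaks; right, SSRP1 midpoint minus FLI1 midpoint (bp) in bins of 50 bp, with values beyond 1000 bp placed at the ends. H3K27ac peaks were wider than both others, and the SSRP1 midpoints centred on the FLI1 midpoint with a median distance of 153 bp.

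Wider FLI1 peaks met wider peaks of both other kinds. For the 469 shared distal peaks of at most 300 bp the median SSRP1 width was 461 bp and the median H3K27ac width 1618 bp. For the 499 above 650 bp these were 675 and 2369 bp, and the 2 classes between them had SSRP1 medians of 498 and 530 bp. The share with an ETS core was 7.89% in the narrowest class (5.62 to 10.7), 11.3% and 12.7% in the middle classes and 14.6% (11.6 to 18) in the widest. The authors' peak caller split 314 shared distal peaks (15%, 13.5 to 16.6) into more than 1 summit, against 4.45% of the distal acetylated peaks without SSRP1. Within 10 strata of FLI1 width the odds ratio for more than 1 summit was 0.914 (0.707 to 1.18), an interval that includes 1.

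The values at the edge of the rule were close on both sides. The smallest SSRP1 overlap kept was 20.1% (chr2:234117251-234117484, nearest gene ATG16L1) and the largest left out 19.5% (chr1:2232232-2232817, SKI). For H3K27ac these were 20.5% (chr20:44633735-44634179, MMP9) and 18.9% (chr6:44134437-44134679, CAPN11). The nearest kept peak to a coding TSS was at 2512 bp (chr2:235889859-235890230, SH3BP4) and the farthest one left out at 2492 bp (chr15:75630932-75631220, COMMD4). The lists hold no peak height, so a threshold on strength could not be tried.

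By FLI1 width, the 12 widest shared distal peaks reached from 1544 to 2267 bp. Leading were chr5:34191448-34193714, 66.8 kb from C1QTNF3-AMACR, and chr14:75446154-75448420, 21.2 kb from EIF2B2, which encodes a subunit of a translation initiation factor, at 2267 bp each. The former has near copies elsewhere in the genome (8 by the measure given with the 5S genes). The peak of 1865 bp at chr6:41611492-41613356 was in an intron of MDFI, an inhibitor of myogenic factors, and that of 1600 bp at chr3:184285844-184287443 in an intron of EPHB3, an ephrin receptor. The nearest genes of others of the 12 were FAM53A, VRK1 (385 kb away), NKD2, a Wnt antagonist, SH2B3, a signalling adaptor, and HCN2, a cation channel. A further 3 lay on chromosome 8, at the lncRNA gene GASAL1, 6.45 kb from LY6E and 883 kb from SPIDR. Of these 12 windows, that at SH2B3 alone held an ETS core.

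The median distance of the shared distal peaks from a coding TSS was 28297 bp. By distance, 503 (24%) were within 10 kb, 868 (41.5%) between 10 and 50 kb and 723 (34.5%) farther, of which 373 were over 100 kb away. The median was 38570 bp for distal acetylated FLI1 peaks without SSRP1 and 40094.5 bp for distal FLI1 peaks with neither mark. By place of the FLI1 midpoint, 874 (41.7%, 39.6 to 43.9) were in introns of protein-coding genes and 4.63% in their exons. Of the rest, 36.2% of all shared distal peaks were intergenic and 17.4% lay in lncRNA gene bodies. The intron share in the acetylated peaks without SSRP1 was 42.2%, a difference of -0.48 percentage points (-3.24 to 2.28) that includes 0. Of the intronic shared distal peaks, 740 of 874 (84.7%, 82.1 to 87.0) lay in a gene whose own promoter carried H3K27ac. That share was 78.3% (75.9 to 80.5) for intronic acetylated peaks without SSRP1 and 69.2% (68.3 to 70.1) for intronic FLI1 peaks with neither mark. Over all protein-coding genes, counted once per gene, 57.9% had an H3K27ac peak within 2.5 kb of a TSS. The classes differ in distance to a TSS, and the H3K27ac peak at an acetylated FLI1 peak may itself reach the promoter. The part of either in these shares was not tested.

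Since the rule excluded coding start sites alone, 370 shared distal peaks (17.7%, 16.1 to 19.4) lay within 2.5 kb of the TSS of a lncRNA gene, at 307 such genes, and 127 covered the TSS itself. The share was 11.9% in acetylated distal peaks without SSRP1, a difference of 5.76 percentage points (3.77 to 7.78), and 5.35% in distal peaks with FLI1 alone. At promoters with both marks it was 30.2%. Within strata of FLI1 width the odds ratio between the shared distal peaks and the acetylated ones without SSRP1 was 1.43 (1.20 to 1.69). Within strata of GC content, which is described next, it was 1.16 (0.975 to 1.37), so the interval then included 1. The widest examples that covered a lncRNA TSS, named after their values were seen, were at GASAL1, at LINC02691 (1362 bp), at LINC01220, 14.1 kb from the immediate-early gene FOS (1171 bp), and at LINC02323 (1030 bp). Of the 10 widest, SLC38A4-AS1, LINC02934 and ANKRD18DP held an ETS core.

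The windows of the shared distal peaks were rich in GC. Their median GC content was 59%, with 8 CpG dinucleotides per 300 bases, against 55% and 6 in the acetylated peaks without SSRP1, 53% and 6 in distal peaks with FLI1 alone, and 68% and 27 at promoters with both marks. Windows tiled over the same chromosomes had a median of 40%, and windows 10 kb to either side of the shared distal peaks 49.3%. A window with GC of at least 50% and an observed to expected CpG ratio of at least 0.6 was taken to meet CpG island criteria. This held for 416 shared distal peaks (19.9%, 18.2 to 21.6) against 8.71% of the acetylated peaks without SSRP1, a difference of 11.2 percentage points (9.19 to 13.2). It held for 1.56% of tiled windows, 5.38% of the moved windows and 78.3% of the promoter peaks. The odds ratio between shared distal peaks and acetylated peaks without SSRP1 was 2.55 (2.13 to 3.05) within strata of FLI1 width, 1.24 (1.01 to 1.51) within strata of GC content and 1.48 (1.21 to 1.80) within joint strata of width and GC content. The 416 island-like windows met SSRP1 peaks whose width had a median of 664.5 bp, and the other 1678 met peaks with a median of 500 bp. They lay within 2.5 kb of a lncRNA TSS in 38.7% of cases against 12.46%, and held an ETS core in 26.7% (22.5 to 31.2) against 7.99% (6.73 to 9.39).

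The ETS core, the sequence in capitals in the windows printed above, was more frequent in the shared distal peaks than in tiled or moved windows. Its share of 11.7% compared with 1.21% of 945195 tiled windows, 2.33% of 4164 windows moved by 10 kb, 3.08% of distal peaks with FLI1 alone and 8.03% of acetylated distal peaks without SSRP1. At promoters with both marks it was 25.5%, and in the 190 distal peaks left out for a GGAA run 1.58%. Tiled and moved windows had a lower median GC content (40% and 49.3%, against 59%) and were not matched for it. The part of GC content in their lower shares was not tested. The difference from the acetylated peaks without SSRP1 was 3.67 percentage points (2.00 to 5.39). The odds ratio between those classes was 1.23 (1.01 to 1.51) within strata of FLI1 width. It was 1.06 (0.863 to 1.29) within strata of GC content and 0.943 (0.763 to 1.17) within strata of both, so a difference at equal GC content was not detectable. The 245 windows with a core had a median GC of 62.3% against 58.3% without, and 45.3% met island criteria against 16.5%. Their SSRP1 peaks had median widths of 572 and 524 bp, and their H3K27ac peaks 1772 and 1877 bp.

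**Figure D2:**
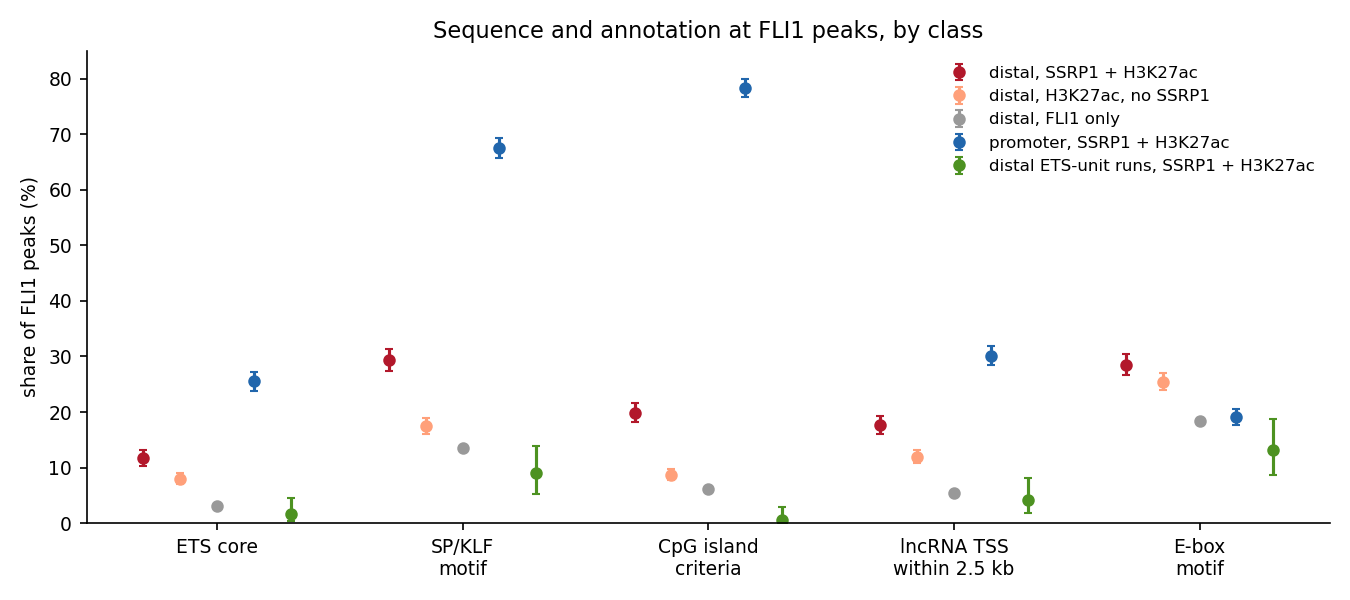
Share of FLI1 peaks (%) with each sequence or annotation feature, by class; points are shares and bars are 95% exact binomial intervals, which cover counting error only. The shared distal peaks stand between the acetylated distal peaks without SSRP1 and the promoter peaks for the ETS core (11.7%, between 8.03% and 25.5%), the SP/KLF motif, island criteria and lncRNA start sites, and above both for the E-box.

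Cores were concentrated at the FLI1 midpoint. Within 100 bp of it there were 203 matches, or 0.485 per kb of sequence, against 0.125 per kb at 500 to 1000 bp, a ratio of 3.87. Around the SSRP1 midpoint of the same regions the densities were 0.298 and 0.130 per kb, a ratio of 2.30. The AP-1 motif (TGACTCA) had 0.198 and 0.149 matches per kb around the FLI1 midpoint, a ratio of 1.33. The SP/KLF motif (GGGCGG), which is rich in GC, had 1.71 and 0.839 around the FLI1 midpoint, a ratio of 2.04, and a ratio of 2.02 around the SSRP1 midpoint. These are counts over 1 set of peaks, and the part of GC content in these ratios was not tested.

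**Figure D3:**
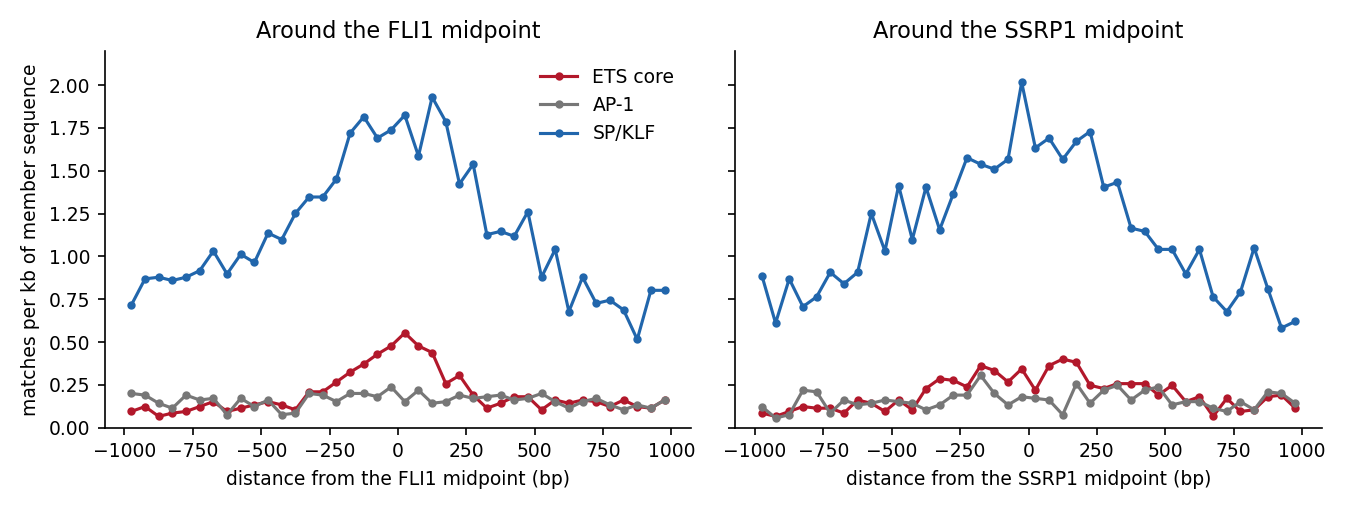
Matches per kb of sequence in bins of 50 bp around the FLI1 midpoint (left) and the SSRP1 midpoint (right) of the 2094 shared distal peaks, for the ETS core, the AP-1 motif and the SP/KLF motif. The ratio of inner to outer density at FLI1 is 3.87 for the ETS core, 2.04 for SP/KLF and 1.33 for AP-1, and at SSRP1 the ETS core (2.30) and SP/KLF (2.02) are close.

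The other motifs searched, on both strands of the same windows, fell into 3 kinds. The SP/KLF motif (GGGCGG) was present in 29.3% of shared distal peaks, 17.4% of acetylated peaks without SSRP1, 4.17% of tiled and 12.4% of moved windows. Its odds ratio between the first pair was 1.82 (1.58 to 2.10) within strata of FLI1 width and 1.09 (0.932 to 1.27) within strata of GC content. The E-box CAGCTG, a motif of basic helix-loop-helix factors, was present in 28.5%, against 25.5% without SSRP1, 18.3% with FLI1 alone, 10.1% of tiled and 15.5% of moved windows. Between the acetylated classes its share differed by 3.03 percentage points (0.551 to 5.53). The odds ratio was 1.08 (0.946 to 1.24) within strata of FLI1 width and 1.07 (0.942 to 1.23) within strata of GC content. The core motif of CTCF, an insulator protein, was rare at 2.05% against 0.979%, 0.152% and 0.456%, with an odds ratio of 2.51 (1.53 to 4.14) by width and 1.39 (0.850 to 2.27) by GC.

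A second kind lay near or under both backgrounds, which are given as the tiled and then the moved windows. AP-1 was present in 5.25% of shared distal peaks, against 4.57% and 5.19%, the NKX2 motif (TNAAGTG) in 10.9% against 20.2% and 18.8%, and the MEIS motif (TGACAG) in 17.8% against 17.7% and 18.9%. NFY (CCAAT) was at 21.3% against 38.2% and 29.1%, and the motif of GATA factors (AGATAA) at 6.64% against 21.2% and 13.6%. The homeobox motif (TAATTA) was at 3.39% against 12.52% and 7.28%, SOX (AACAATG) at 1.77% against 6.07% and 3.31%, and POU (ATGCAAAT) at 1.00% against 3.06% and 1.56%. RUNX (TGTGGTT) was at 5.30% against 5.81% and 4.56%, and TEAD (ACATTCC) at 4.202% against 4.34% and 3.79%. The moved windows were closer in GC content to the shared distal peaks than the tiled ones, and for most of these motifs also closer in share. The rest were short or rare words. The single unit GGAA, which is part of the ETS core, was in 96.3% of shared distal peaks, 91.8% of tiled and 90.5% of moved windows, and 2 tandem units in 6.21%, 2.80% and 3.29%. The E-box CACGTG was in 6.35%, 2.73% and 5.28%, so close to the moved windows. Found in under 1% of shared distal peaks each were 3 tandem GGAA units and the motifs of CREB (TGACGTCA), NFI, NRF1 and RFX. Of these, CREB (0.525%, against 0.101% and 0.072%), NRF1 (0.573%, against 0.046% and 0.120%) and RFX (0.239%, against 0.019% and 0.048%) lay above both backgrounds. So did NFI, in 1 window, while 3 tandem units (0.239%) lay under both (0.264% and 0.432%). By longest tandem run over the whole FLI1 peak, 1850 had a single unit, 186 had 2, 8 had 3 and 50 had none.

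Assigned by the nearest TSS, the shared distal peaks fell to 1246 of 20090 protein-coding genes (6.2%). Of these, 843 had 1 such peak, 210 had 2 and 193 had 3 or more (0.961% of all genes), and 831 peaks belonged to those 193. The nearest gene is a position and no proof of a target. The genes met had more sequence around them than others: the stretch of genome nearest to a gene had a median of 51 kb over all genes, 108 kb for the 1246 and 174 kb for the 193. The 1671 genes nearest to the acetylated distal peaks without SSRP1 (8.32% of all genes) had a median stretch of 135 kb.

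The promoters of these genes often carried the same marks. The rule kept only the FLI1 peak away from coding TSSs, so the SSRP1 or H3K27ac peak it used may itself reach the promoter. The part of such peaks in the promoter shares of SSRP1, of H3K27ac and of all 3 marks was not tested. An FLI1 peak lay within 2.5 kb of a TSS at 49.2% of the 1246 genes, against 29% of all genes, an SSRP1 peak at 59.8% (57.0 to 62.5) against 35.8%, and an H3K27ac peak at 76.7% (74.3 to 79.0) against 57.9%. All 3 were present at 36.4% (33.8 to 39.2) against 17.3%. Among the 193 genes with 3 or more peaks all 3 marks were at 52.8% (45.6 to 60.1). The genes nearest to acetylated distal peaks without SSRP1 had values close to the 1246, with FLI1 at 47.2%, SSRP1 at 57.0%, H3K27ac at 73.3% and all 3 at 34.4%. These gene sets overlap. Of the genes met by 1 class alone, 643 were nearest to shared distal peaks and 1068 to the acetylated peaks without SSRP1. Their shares differed by 1.00 percentage points for FLI1 (-3.82 to 5.85), 2.43 for SSRP1 (-2.45 to 7.28), 4.09 for H3K27ac (-0.36 to 8.40) and 1.17 for all 3 (-3.30 to 5.73), and every one of these intervals includes 0.

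Of 40 known targets that EWS-FLI1 activates, 16 (40%, 24.9 to 56.7) were the nearest gene of a shared distal peak, against 6.2% of all genes, and 8 of the 16 had 3 or more. None of these 16 depended on a repeated window. The acetylated distal peaks without SSRP1 were nearest to 20 of the same 40, against their background of 8.32%, so both classes of acetylated peak met the list. The list's genes had a median stretch of 159 kb. Counted as any shared distal peak within 100 kb, the list had 17 of 40 against 16.1% of all genes. Of 20 genes known to be repressed by the fusion or mesenchymal in character, 1 was a nearest gene (5%, 0.127 to 24.9), CCN1, a matricellular protein, which is about the share of all genes. That list's median stretch was 262.5 kb.

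NKX2-2, a homeobox factor on which Ewing sarcoma cells depend, had 7 shared distal peaks over 68.9 kb, 3.81 to 63.5 kb from its TSS, with FLI1 widths of 228, 334, 970, 301, 289, 450 and 231 bp in genomic order. The 7 SSRP1 peaks they met were 462, 582, 2448, 601, 364, 590 and 664 bp wide. The widest FLI1 and the widest SSRP1 peak thus met at the same place, chr20:21502538-21503507, in a lncRNA gene body, while the window with 2 ETS cores belonged to a peak of 334 bp. Both peaks downstream of the gene shared 1 H3K27ac peak of 8390 bp, which also covered the TSS of NKX2-2.

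CCND1, the cyclin D1 gene of the G1 phase, had 4 shared distal peaks, of 299, 440, 324 and 390 bp, at 3.13 to 14.3 kb from its nearest TSS. The first 3 were in its own introns and the last in an intron of the neighbouring LTO1. Those 3 met the same SSRP1 peak of 8821 bp, so they are not separate SSRP1 events, and the midpoint distance of 2480 bp at the first is the largest among all shared distal peaks. PRKCB, a protein kinase C gene, had 4 intronic ones at 65.2 to 199 kb, of 738, 628, 394 and 253 bp. BCL11B, a zinc finger factor, had 4, of which 2 were intronic and 2 lay 1005 and 1061 kb away. ID2, an inhibitor of basic helix-loop-helix factors, had 3, the nearest of 1345 bp at 2.77 kb. PAX7, a paired box factor, SOX6 and VRK1 had 3 each, JAK1 and PPP1R1A 2 each, and FCGRT, EZH2, IGF1, CALCB, SLCO5A1 and LOXHD1 1 each.

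Of 20 transcription factors of the Ewing sarcoma core circuit, 8 (40%, 19.1 to 63.9) were a nearest gene, and 12 were a nearest gene of an acetylated peak without SSRP1. These genes lie in large stretches, with a median of 864 kb. Within 100 kb the count was 5 of 20 (25%, 8.66 to 49.1), an interval that includes the 16.1% of all genes. Besides NKX2-2, SOX6 and BCL11B, the 8 were MEIS1 with 6 shared distal peaks, SOX11 with 2, and TCF4, SOX5 and RREB1 with 1 each. MEIS1, a homeobox cofactor, had 3 in its introns at 5.19 to 6.68 kb, of 274, 242 and 690 bp, all inside 1 H3K27ac peak of 16432 bp, and the others at 136 to 349 kb.

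In signalling lists the counts were as follows. Axon guidance, which holds semaphorins, plexins, ephrins and their receptors, had 10 of 36 (27.8%, 14.2 to 45.2), against 9 for the peaks without SSRP1. EPHB3 had 6 shared distal peaks (482, 1600, 236, 326, 476 and 325 bp in genomic order), EPHA2 had 5 and PLXND1 had 4, with SEMA3C, SEMA5B and PLXNA1 among the rest. The TGF-beta and BMP list had 8 of 32 (25%, 11.5 to 43.4), against 11 without SSRP1. Of its members SMAD7, an inhibitory SMAD, had 7, SKI, a SMAD corepressor, had 4, SMAD3 and SMAD6 had 3, and SMAD2, SMAD9, ID2 and ID3 had 1 to 3. At SMAD7 the peaks ranged from 231 to 870 bp and lay 17.2 to 120 kb from the TSS, with 3 in introns of SMAD7 and 3 in introns of the neighbouring CTIF.

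The other lists lay closer to the share of all genes. Wnt genes had 4 of 32 (interval 3.51 to 29%), of which the antagonist APCDD1 had 6 shared distal peaks, the coreceptor LRP5 had 4, and WNT5B and FZD2 had 1 each. IGF and G1 genes had 4 of 24, namely CCND1, CDKN2C, INSR and IGF1. FACT and other histone chaperones had 3 of 17, NAP1L4, ASF1B and ANP32A, and the SWI/SNF (BAF) complex 2 of 24, ARID1A and BCL7C. Markers of other cell types had 2 of 21 matched (CD79A and CDH5), and olfactory receptors 0 of 15, which allows a share of up to 21.8%. The intervals of activated genes, core factors, axon guidance and TGF-beta lay above 6.2%, and those of the other lists included it. Within 100 kb the share of all genes was 16.1%. Axon guidance had 9 of 36 (25%, 12.1 to 42.2) and TGF-beta 9 of 32 (28.1%, 13.7 to 46.7). Markers of other cell types had 6 of 21 (28.6%, 11.3 to 52.2). These intervals, and that of the core factors, include the share of all genes. The median stretch was 271.5 kb for axon guidance and 192 kb for TGF-beta, against 51 kb over all genes.

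**Figure D4:**
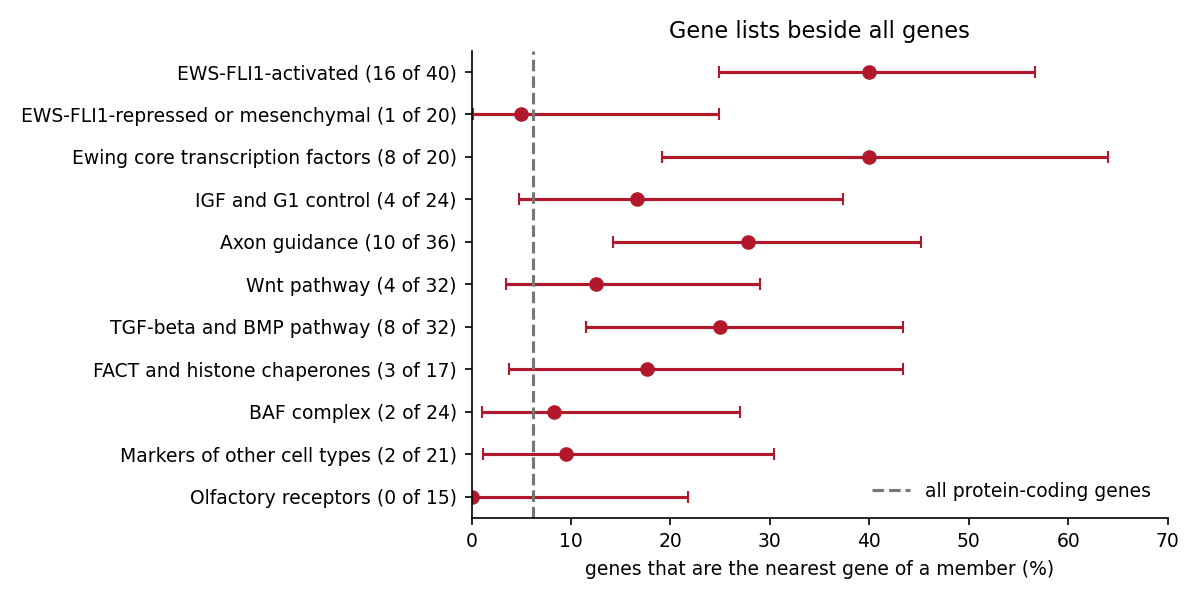
Share of each list's genes (%) that are the nearest protein-coding gene of a shared distal peak; points are shares, bars are 95% exact binomial intervals and the dashed line is the share of all protein-coding genes (6.2%). Activated genes and core transcription factors stand at 40% each, and the genes of a list differ from others in the stretch of genome around them.

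The 10 genes that were nearest to the most shared distal peaks had 8 to 14. SAMD11 led with 14 over 37.7 kb, 3.22 to 18.1 kb from its TSS, which met 8 SSRP1 peaks and 5 H3K27ac peaks, so neighbouring FLI1 peaks often shared a partner. RXRA, the retinoid X receptor alpha gene, had 13 over 199 kb that met 13 separate SSRP1 peaks and 9 H3K27ac peaks, and 9 of the 13 were intronic. Their FLI1 widths ranged from 231 to 1275 bp with a median of 478 bp, and none of the 13 windows held an ETS core. NTMT1 had 12, spread over 171 kb that include LINC00963, with 3 ETS cores. SEPTIN9, a septin cytoskeleton gene, had 10 with 9 in introns, BAHCC1, a chromatin reader, 10 with 4 cores, and NANOS3 10 with 2 cores over 29.3 kb. SPIDR had 13 and ZNF703 had 8, both on chromosome 8. Those of SPIDR lay 72.9 to 1158 kb from its TSS. The remaining 2, RNF187 with 13 and CWH43 with 10, rest on repeated sequence, as follows.

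**Figure D5:**
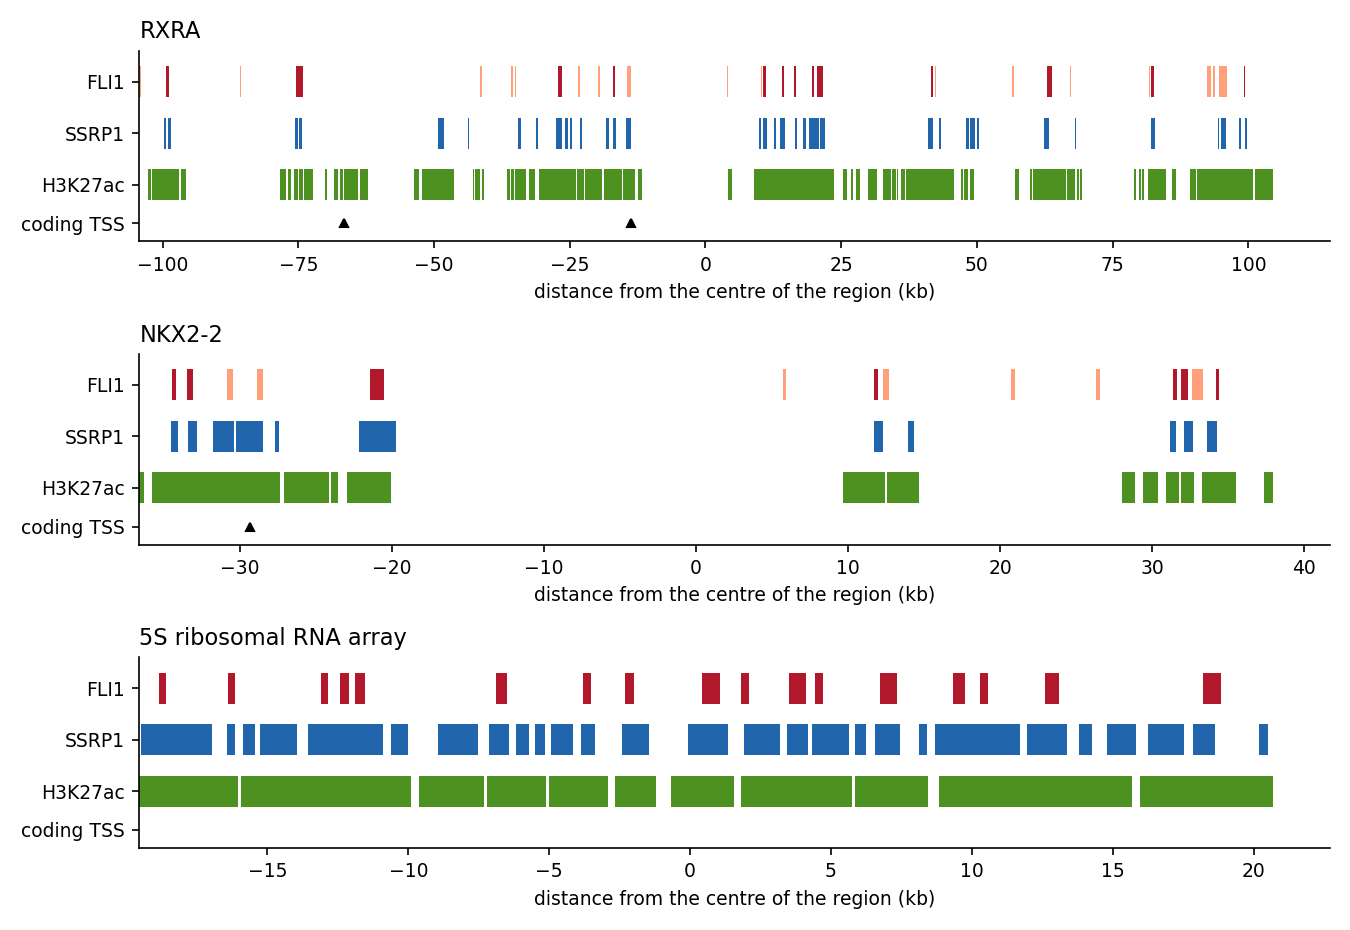
FLI1, SSRP1 and H3K27ac peaks and protein-coding TSSs (triangles) around RXRA, NKX2-2 and the 5S ribosomal RNA genes, by distance from the centre of each region (kb); shared distal FLI1 peaks are dark red and other FLI1 peaks light orange. The 13 shared distal peaks of RXRA and the 7 of NKX2-2 are spread out between other FLI1 peaks, while the 17 at the 5S genes are packed into one array with no coding TSS.

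Joined across gaps of up to the distance commonly used to stitch enhancers (between the 5 and 25 kb tried as alternatives), 380 shared distal peaks (18.1%, 16.5 to 19.9) formed 95 clusters of 3 or more, and 1208 stood alone. The cluster with the most, 17, at chr1:228744824-228782509, covered the array of 5S ribosomal RNA genes, whose product is a part of the large ribosomal subunit. The annotation places 17 copies there, on the minus strand, in units of 2241 bp. The 17 FLI1 peaks were 227 to 634 bp wide and met 14 SSRP1 and 10 H3K27ac peaks. Their windows had 15 to 18 copies in the genome.

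To see how much such sequence weighs, a window was called repeated when at least 50% of its 32-base words occur elsewhere in the genome. This held for 181 shared distal peaks (8.64%, 7.47 to 9.93), 11.1% of acetylated peaks without SSRP1 and 35.5% of distal peaks with FLI1 alone. With such windows left out, 1913 shared distal peaks remained, at 1166 genes (5.8%), and 319 of them (16.7%) formed 84 clusters. The ETS core was then in 11.9% against 8.39%, island criteria were met by 18.1% against 7.52%, and a lncRNA TSS was within 2.5 kb of 16.5% against 11.7%. A small RNA gene lay within 2.5 kb of 84 shared distal peaks (4.01%) with all windows and of 50 (2.61%) without the repeated ones, and the values without SSRP1 were 1.75% and 1.71%. All 13 peaks at RNF187 and 9 of 10 at CWH43 were repeated, as were the clusters nearest to AC026369.1 (6 peaks, median of 5 copies) and OR4F4 (6 peaks, 5.5 copies). The clusters free of repeated windows were led by SAMD11 (15 with 1 peak nearest to NOC2L), BAHCC1 (8), SEPTIN9, OLFM1, NTMT1, MDFI and NANOS3 (6 each) and one near MAFA on chromosome 8 (6). The cluster of 7 between SOX8 and SSTR5 held 1 repeated window.

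By chromosome, the median was 0.695 shared distal peaks per Mb, or 6.31% of the FLI1 peaks there. The highest density was 2.47 per Mb on chromosome 19 and the lowest 0.103 on chromosome X. Chromosome 8 held 169, or 3.68% of its 4594 FLI1 peaks, which lay at 31.4 per Mb. Chromosome 10 held 22 among 242 FLI1 peaks, at 1.79 per Mb. Copy number was not measured, and its part in these densities was not tested.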

How the data were processed

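ChIP-seq peaks of FLI1, SSRP1 and H3K27ac in SKNMC cells were analysed, with 1 library per target; the input library has no list of its own. The deposited tables give chromosome, start, end and name of each peak (positions, with no score, signal or q-value). The authors used Bowtie2 with default settings for alignment to hg19 and MACS2 2.2.7.1, at a q-value of 0.05 over input, for peaks of each library, per the series' design text and the labels. Filters on duplicate or multiply mapped reads are not stated there, and read depth is unknown, so precision follows from peak numbers. The deposited lists hold 38324, 23078 and 62198 lines for FLI1, SSRP1 and H3K27ac. Intervals repeated for several summits were counted once, which left 36539, 19955 and 37271, and chromosomes 1 to 22 and X were kept.

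Coordinates are 1-based. Genes were GENCODE release 44 on GRCh37, with TSSs of basic transcripts. Shares carry 95% Clopper-Pearson intervals, differences Newcombe intervals, and odds ratios are Mantel-Haenszel over 10 strata (5 by 5 where width and GC are joint) with Robins-Breslow-Greenland intervals. Peaks are not replicates, so no test gave a p-value. The stretch of genome nearest to a gene was measured at points every 3 kb over 2.5 kb from a coding TSS. Named were the 12 widest shared distal peaks, the 10 clusters and the 10 genes with the most of them, genes of 11 lists in list order, and peaks at the edges of the rule. The list genes numbered 282, of which 281 were matched, and 1 further list and 1 sequence are not reported here. Members and lists were chosen with earlier results of these data known. Repeated windows, joint strata, the stretch per gene and the promoter marks of genes met by 1 class alone were added after the data were seen. Functions were tested on simulated data with planted overlaps, odds ratios and motifs. Python 3.11.15, numpy 2.4.6, pandas 2.3.3 and scipy 1.17.1 were used. Alternatives were other overlap minima, TSS distances, chromosomes, windows, strata and stitching distances. Read signal was not analysed here.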

Additional observations from a re-analysis of the deposited data

Results flagged for a closer look

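Outside chromosomes 1 to 22 and X, which the comparisons do not use, 33 of 234 FLI1 peaks (14.1%) were shared with both an SSRP1 and an H3K27ac peak by the same overlap minimum, of which 15 lay on 1 contig. They are given because no comparison covered this sequence, and their share was not shown to be raised. On chromosomes 1 to 22 and X, 36305 FLI1 peaks included 2094 shared distal peaks and 2663 promoter peaks with both marks. A further 190 distal peaks with both marks held a GGAA run. The 5.77% given for shared distal peaks also required distance from a coding TSS, so it is not a like share. With no gene annotation used there, their distance to a TSS was not measured.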

How the results depend on the processing

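The count of 2094 shared distal peaks became 1162 with a minimum of 20% of both peaks, and stayed between 1776 and 2333 under the other alternatives. The same stricter overlap gave an ETS core share of 13.3% and 4.30% of peaks in clusters. A window of 200 bases gave a core share of 8.40% and the whole FLI1 peak 16.4%. The odds ratio for the ETS core was 1.22 (0.990 to 1.51) without repeated windows, 1.17 (0.932 to 1.48) with the window of 200 bases, 1.06 with GC strata and 0.943 with width and GC strata, and 1.24 to 1.52 under the other alternatives. Stitching within 5 kb and 25 kb gave 11.4% and 26.6% in clusters. Without repeated windows 43.9% were intronic. A distance of 1 kb to a lncRNA TSS, over all shared distal peaks, gave 12.8%. Any gene within 100 kb of a shared distal peak gave 3228 genes. Of the alternative values, 39 kept their direction and their side of the threshold or moved within their interval. A further 10 moved more, 3 were weaker and 1 reversed, the odds ratio of 0.943, whose interval includes 1. Gene counts have no interval: the 1246 nearest genes became 883 with the stricter overlap, which was counted among the 39. No paired analysis was possible because each target had 1 library. Peak height and depth were not analysed here, so weak and strong peaks count alike.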
